A study of Mus musculus with 18 samples.

Results

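The aryl hydrocarbon receptor (AhR) pathway was examined through 7 of its genes in cells of the mouse ileum, the last stretch of the small intestine. These were *Ahr*, *Arnt*, *Ahrr*, *Tiparp*, *Cyp1a1*, *Cyp1a2* and *Cyp1b1*, among 37074 gene names on the array, and every non-control probe that carries one of these names was taken, 11 of 56605 probes. The 18 samples were RNA from cells released from the ileum with a chelating buffer, each hybridised to a single-colour Agilent array, on which labelled cRNA binds to printed probes of 60 bases and more transcript gives a brighter spot. All mice, on a C57BL6/J background, carried the floxed *Pgc1α* allele. There were 6 Pgc1α fl/fl mice, called floxed mice below, on chow (labelled iPGC1afl/fl, CHOW), 6 floxed mice on Western diet (WD; labelled HFD) and 6 mice on WD labelled iPGC1a-/- (iPgc1α-/-), in which Cre driven by the Villin promoter is meant to delete exons 3 to 5 in the intestinal epithelium only. WD held 42% of its kcal as fat, with milk fat and 0.2% cholesterol, was given for 8 weeks from 8 weeks of age, and mice were killed after a night without food at Zeitgeber time 3. No iPgc1α-/- mice on chow were analysed here, so the effect of genotype on chow and that of diet without *Pgc1α* were not computed.

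The AhR is a transcription factor that waits in the cytosol with heat shock chaperones until it binds a ligand, such as a plant indole from food, a tryptophan metabolite of gut bacteria or of the host, or a pollutant such as dioxin. It then moves to the nucleus, pairs with ARNT and binds DNA at sites with the core GCGTG. The genes it switches on include the CYP1 enzymes, which break its own ligands down, and AHRR and TIPARP, which dampen it. In the intestine it is known for its part in keeping intraepithelial lymphocytes and group 3 innate lymphoid cells and for induction of CYP1A1 in the epithelium.

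Each member is read here only through its probes, so the start of 6 probes is shown, read 5′ to 3′ from the array files as their first 30 bases. They are the 3 probes of *Arnt*, the 2 of *Ahrr* and the probe of *Cyp1a1*. Of the *Ahrr* probes, the farther from the 5′ end gave less signal on WD, close to background and outside the filtered test.
Arnt, start 641: acatttgatcttggaggcaacagatggctt
Arnt, start 3569: tcagaactgagtgtgggtgtgaactcccta
Arnt, start 4288: ccatctgtgctaagccttaactgtggcaaa
Ahrr, start 2553: actttgcataatgatagtcatggaaacacc
Ahrr, start 4532: ggaataaatacaagtgcccttatatttgca
Cyp1a1, start 2603: gataatttgctagtgtaacaaagaagattc
The starts are positions in the transcript that the files name for each probe. These are NM_001037737 for *Arnt* at 641 and 4288, ENSMUST00000149051 for *Arnt* at 3569, NM_009644 for *Ahrr* and NM_009992 for *Cyp1a1*. The *Cyp1a1* probe was poor in G and C, with 25% of its bases against a median of 41.7% over all probes, and 0.7% of all probes held a lower share.

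On mm9, as the array files give it, the *Arnt* probes lie at chr3:95278469-95278528, chr3:95296147-95296206 and chr3:95301081-95301140, all on the plus strand. The *Ahrr* probes lie at chr13:74350685-74350744 and chr13:74348566-74348612, and those of *Ahr* at chr12:36182724-36182783 (NM_013464, start 5361) and chr12:36199083-36199142 (ENSMUST00000173414, start 753), all on the minus strand. The probe of *Tiparp* lies at chr3:65358749-65358808 (NM_178892, start 3462, plus strand). Those of the CYP1 genes lie at chr9:57551535-57551594 for *Cyp1a1* (plus strand), chr9:57528060-57528119 for *Cyp1a2* (NM_009993, start 1032, minus strand) and chr17:80106547-80106606 for *Cyp1b1* (NM_009994, start 4814, minus strand). The range given for the *Ahrr* probe with start 4532 is shorter than its 60 bases, and the reason was not determined. Exon and UTR positions of the probes were not determined here.

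RefSeq promoter windows (GRCm38.p6, from 250 bases before the transcript start to 50 bases after it) were at hand for 6 of the 7 members, not for *Ahr*, and were searched for the AhR core GCGTG on both strands. It was present in 5 of the 6, with 7 matches in all, of which 3 were in *Ahrr* and none in *Cyp1a2*. The core was found in the windows of 35.2% of all genes in the table. A match in each of the windows of *Cyp1a1*, *Cyp1b1* and *Tiparp* is shown with 10 bases on either side, on the strand of the gene, with the core or its reverse complement in capitals.
Cyp1a1: agataaggagGCGTGgccaacagac
Cyp1b1: tcccgcccctCACGCcccaccccct
Tiparp: ccgtccggagCACGCgcacgggagg
They lie at chr9:57697549-57697573 on the plus strand, chr17:79715123-79715147 on the minus strand and chr3:65528267-65528291 on the plus strand. The arrays held no measure of binding, so these matches describe the sequence only.

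Array brightness varied, and some arrays on WD were dimmer. The median spot signal was 47 to 53.5 units on chow, 39 to 52 in floxed mice on WD and 42 to 61 in iPgc1α-/- on WD. By the scanner software's flag, the share of non-control spots per array well above background was 59.7% to 61.9% on chow. It was 56.3% to 61.7% in floxed mice on WD and 56.7% to 62.3% in iPgc1α-/- on WD. From 46 to 153 spots per array were left out as outliers, and each of the 3 slides held 2 arrays of every group. The deletion could not be read from *Ppargc1a*, the gene of Pgc1α, since neither of its probes was lower in the arrays labelled iPgc1α-/- than in floxed mice on WD (log2 fold changes of 0.30 and 0.36 with adjusted p of 0.573 and 0.494 in limma), and whether these probes lie outside the deleted exons was not determined here. The genotype below is therefore that of the labels. By RT-qPCR, the paper reports the deletion along the intestine of iPgc1α-/- mice, with lower *Tfam*, *Cyt-C* and *Atp5b* in the ileum. Markers of lymphocytes and plasma cells differed by diet. On WD, 11 of 12 tested markers of T cells and intraepithelial lymphocytes were lower in floxed mice (median log2 fold change -1.64), as were 6 of 7 of B and plasma cells (median -1.95), 5 of 7 of goblet cells (median -0.68) and 3 of 8 of crypt and cycling cells (median -0.32). Of 6 ileum markers 3 were lower and 1 higher (median -0.44), 2 of 8 enterocyte markers were higher (median 0.12) and limma called 0 of 4 tested fibroblast markers. Of 7 tested markers of macrophages and dendritic cells 1 was lower (median -0.22), as were 2 of 7 of Paneth cells (median 0.0028). Of 6 markers of group 3 innate lymphoid cells only 1 was tested, and 0 were called. Among all tested genes 3.53% were called higher and 5.58% lower in this comparison. In bulk RNA, fewer cells of a type and less RNA per cell cannot be told apart.

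The receptor, its partner and *Tiparp* were well above background in all 18 arrays, whereas the 3 CYP1 enzymes were so in none and *Ahrr* in 1. A probe was tested when some group had it well above background in 5 or 6 of its arrays, which 5 of the 11 probes and 3 of the 7 genes passed. Values below are log2 of the median spot signal after smooth quantile normalization, which allows array distributions to differ between groups, and they compare groups at a probe, never probe with probe. A call needed at least 1 probe of the gene with an adjusted p up to 0.05 and a change of more than 1.5-fold. No member was called by limma in any of the 3 comparisons. Of all tested genes, 9.1% were called for WD against chow in floxed mice, 0.162% for iPgc1α-/- against floxed mice on WD and 13.3% for iPgc1α-/- on WD against floxed mice on chow. These comparisons share groups of arrays and are not independent of each other. With the fold left aside, 1 member, *Arnt*, passed for WD against chow (27.3% of all genes did), and none in the other 2 comparisons (0.269% and 41.7% of all genes). At an unadjusted p under 0.05 the counts were again 1, 0 and 0 of 3, against 41.4%, 13% and 52.6% of all genes.

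**Figure D1:**
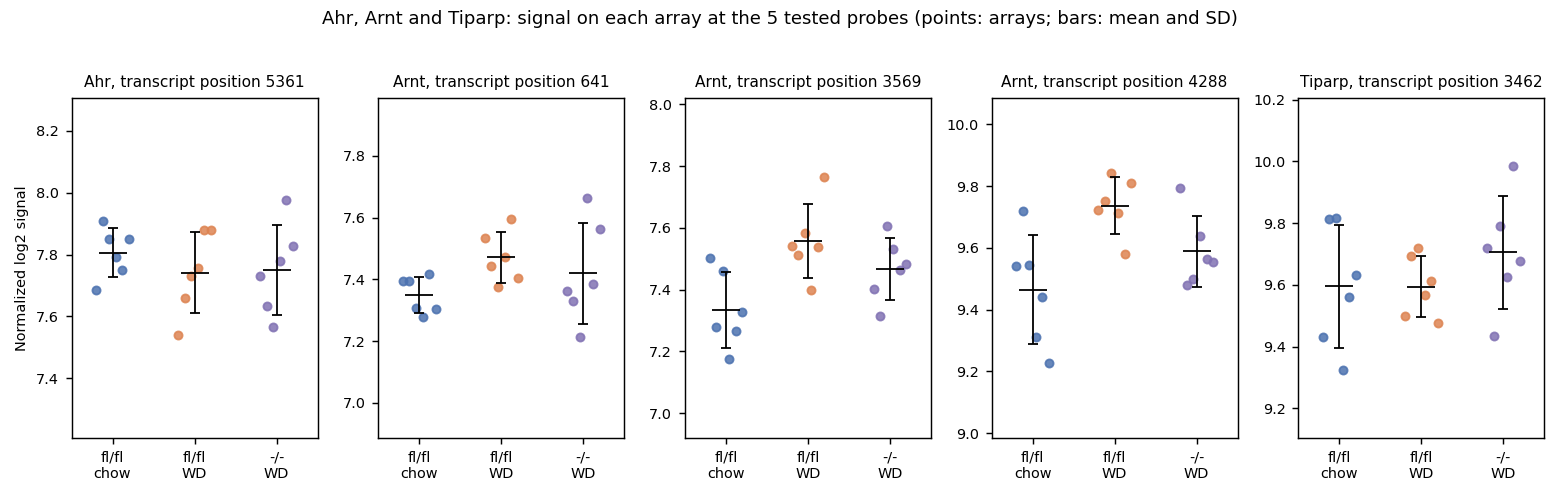
Normalized log2 signal (vertical axis, with a range of the same height in every panel but its own origin) at the 5 tested probes, named by gene and start in the transcript, in floxed mice on chow or WD and in iPgc1α-/- mice on WD. Each point is an array (6 per group) and bars give mean and SD. The groups overlap at every probe, and at the *Arnt* probe with start 4288 the mean was 9.46 on chow and 9.74 on WD in floxed mice.

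*Ahr*, the receptor itself, did not differ between groups beyond the spread of its arrays. At its tested probe the lowest, median and highest log2 signals were 7.69, 7.82 and 7.91 in floxed mice on chow, 7.54, 7.74 and 7.88 in floxed mice on WD, and 7.56, 7.75 and 7.98 in iPgc1α-/- on WD. All groups overlapped, and the highest and the lowest of the 18 arrays were both from mice on WD. The log2 fold change was -0.07 for WD against chow (95% interval -0.23 to 0.10, limma adjusted p = 0.595), which in linear terms spans 0.852-fold to 1.07-fold. It was 0.01 for iPgc1α-/- against floxed mice on WD (-0.16 to 0.18, adjusted p = 0.978) and -0.06 for iPgc1α-/- on WD against floxed mice on chow (-0.22 to 0.11, adjusted p = 0.62). In the same arrays, the mean log2 level of the T cell and intraepithelial lymphocyte list was 9.49 to 10.9 on chow and 8.69 to 9.31 in floxed mice on WD. The second *Ahr* probe, designed on another transcript, was well above background in 1 of 18 arrays, in an iPgc1α-/- mouse, and gave signals of 22 to 38 units.

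*Arnt*, the partner with which the AhR binds DNA and which also serves hypoxia-inducible factors, was the tested member whose difference by diet passed the adjusted p, though not the fold. At its brightest probe (start 4288), the lowest, median and highest log2 signals were 9.23, 9.49 and 9.72 in floxed mice on chow and 9.58, 9.74 and 9.84 in floxed mice on WD. Of the 6 arrays on WD, 4 lay above every array on chow and all 6 above the chow median, yet the groups overlapped. The log2 fold change was 0.27 (SE 0.08, 95% interval 0.10 to 0.45, limma adjusted p = 0.0232), a 1.21-fold difference that did not reach the 1.5-fold threshold. Within the 3 slides the difference was 0.12, 0.45 and 0.25.

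The other 2 *Arnt* probes had the same sign. The probe with start 3569 gave 0.22 (SE 0.08, limma adjusted p = 0.0428) with 5 of 6 WD arrays above all chow arrays, and the probe with start 641 gave 0.12 (SE 0.08, adjusted p = 0.264) with 4 of 6. At the brightest probe the adjusted p crossed 0.05 when any of 3 arrays was left out. Without replicate 3 of floxed mice on WD it became 0.25 with limma's adjusted p = 0.0582, without replicate 4 of chow 0.24 with 0.06, and without replicate 6 of chow 0.23 with 0.0585. The enterocyte, T cell and B cell lists moved with diet in the same arrays, and their part in the *Arnt* difference was not tested.

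In iPgc1α-/- mice on WD, the brightest *Arnt* probe lay between the other groups. Its lowest, median and highest log2 signals were 9.48, 9.56 and 9.79. It differed by -0.15 from floxed mice on WD (95% interval -0.32 to 0.03, limma adjusted p = 0.583) and by 0.12 from floxed mice on chow (-0.05 to 0.30, adjusted p = 0.259). By mean the order was floxed mice on WD, iPgc1α-/- on WD and floxed mice on chow, and neither pair of neighbours differed at the threshold. At the other 2 probes iPgc1α-/- also lay below floxed mice on WD, by -0.09 and -0.05 on the log2 scale, with limma adjusted p of 0.729 and 0.853.

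*Tiparp* encodes an ADP-ribosyltransferase that the AhR induces and that in turn limits AhR activity, which makes it a readout of the pathway besides the CYP1 genes. Its probe was bright in every array, with lowest, median and highest log2 signals of 9.33, 9.60 and 9.82 in floxed mice on chow, 9.48, 9.59 and 9.72 in floxed mice on WD and 9.43, 9.70 and 9.98 in iPgc1α-/- mice on WD. The floxed mice on WD lay inside the range of those on chow, and the highest array was from an iPgc1α-/- mouse. The log2 fold change for WD against chow was -0.0020 (95% interval -0.21 to 0.20, limma adjusted p = 0.991), or 0.867-fold to 1.15-fold. For iPgc1α-/- against floxed mice on WD it was 0.11 (-0.09 to 0.31, adjusted p = 0.736), with 3 of 6 arrays above every array of floxed mice on WD. Against floxed mice on chow it was also 0.11 (-0.09 to 0.31, adjusted p = 0.4). Without replicate 5 of iPgc1α-/- these values were 0.056 and 0.054, and without replicate 4 of chow the latter was 0.055. A p above the threshold does not show that levels were the same, but the intervals of *Ahr*, *Arnt* and *Tiparp* all ended short of a 1.5-fold change.

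**Figure D2:**
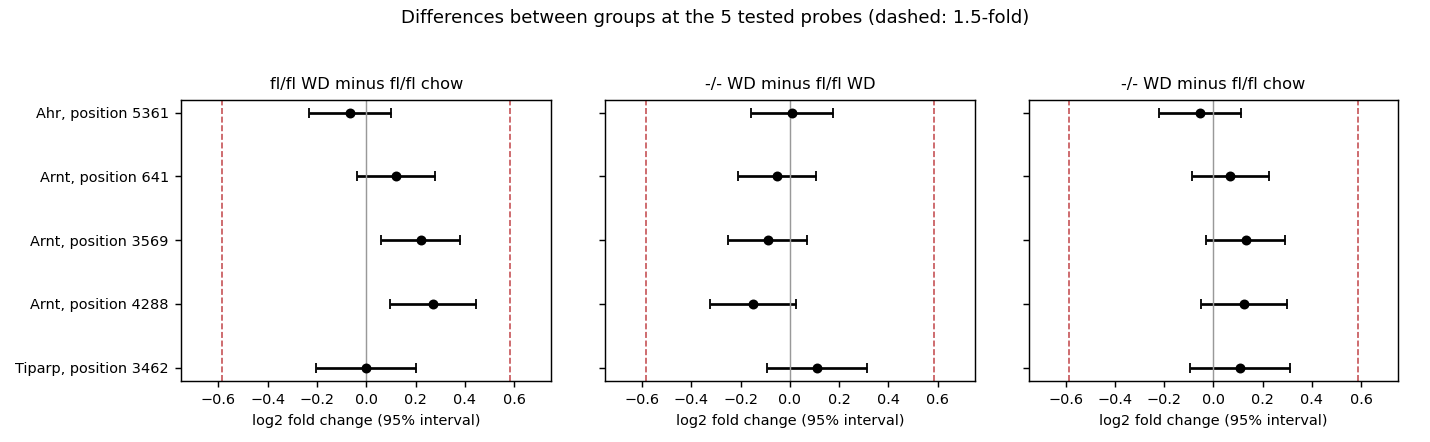
Log2 fold changes (horizontal axis) with 95% intervals from limma at the 5 tested probes, for floxed mice on WD minus floxed mice on chow, iPgc1α-/- on WD minus floxed mice on WD, and iPgc1α-/- on WD minus floxed mice on chow. Dashed lines mark 1.5-fold. Every interval lies between the dashed lines, and the *Arnt* probes with starts 4288 and 3569 are those whose diet interval lies above 0.

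*Ahrr* encodes the AhR repressor, which competes with the receptor for ARNT and is itself an AhR target, and its signal was close to the detection limit. At the probe with start 4532, the lowest, median and highest raw median signals were 27.5, 31.5 and 40 units in floxed mice on chow, 22, 26 and 29.5 in floxed mice on WD, and 20, 25 and 27 in iPgc1α-/- mice on WD. Only 1 chow array was well above background by the scanner flag. A looser yardstick was the 95th percentile of the 308 negative-control spots of the same array, which ranged from 22.7 to 28 units. All 6 chow arrays exceeded it, against 2 of 6 in each group on WD. These raw signals were not scaled between arrays, whose median signal differed as given above.

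On the normalized log2 scale, the means of this *Ahrr* probe were 4.97 ± 0.15 on chow, 4.69 ± 0.08 in floxed mice on WD and 4.59 ± 0.16 in iPgc1α-/- on WD (SD, n = 6). On this scale 5 of 6 chow arrays lay above every array of floxed mice on WD, and likewise above every iPgc1α-/- array. Within the 3 slides the difference between WD and chow in floxed mice was -0.35, -0.20 and -0.31. With 1 array on chow and none on WD well above background, no fold is given as a bound. The probe was not in the filtered test. In a limma fit of all 56605 probes its log2 fold change was -0.29 for WD against chow (SE 0.08, adjusted p = 0.0217), -0.38 for iPgc1α-/- on WD against floxed mice on chow (SE 0.08, adjusted p = 0.00202) and -0.09 for genotype on WD (adjusted p = 0.824). The size depended on how the signal was treated: over 4 other treatments the diet difference ran from -1.51 to -0.10, and that for genotype from -0.25 to 0.0090. In that fit 12.5%, 19.4% and 0.104% of all probes passed an adjusted p of 0.05 in these comparisons.

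The other *Ahrr* probe did not show this pattern. With start 2553 in the same transcript, it gave 19 to 25 units over all 18 arrays and exceeded the negative-control percentile in 1. It differed by 0.08 for WD against chow (SE 0.06, adjusted p = 0.5 in limma without a filter). With signals at background, this probe cannot tell whether the transcript differed. The lower *Ahrr* signal on WD therefore rests on a single probe near background. It went with lower T cell and intraepithelial lymphocyte markers in the same arrays, whose mean log2 level per array was 9.49 to 10.9 on chow, 8.69 to 9.31 in floxed mice on WD and 8.81 to 9.51 in iPgc1α-/- mice on WD, and the part of these cells in it was not tested.

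**Figure D3:**
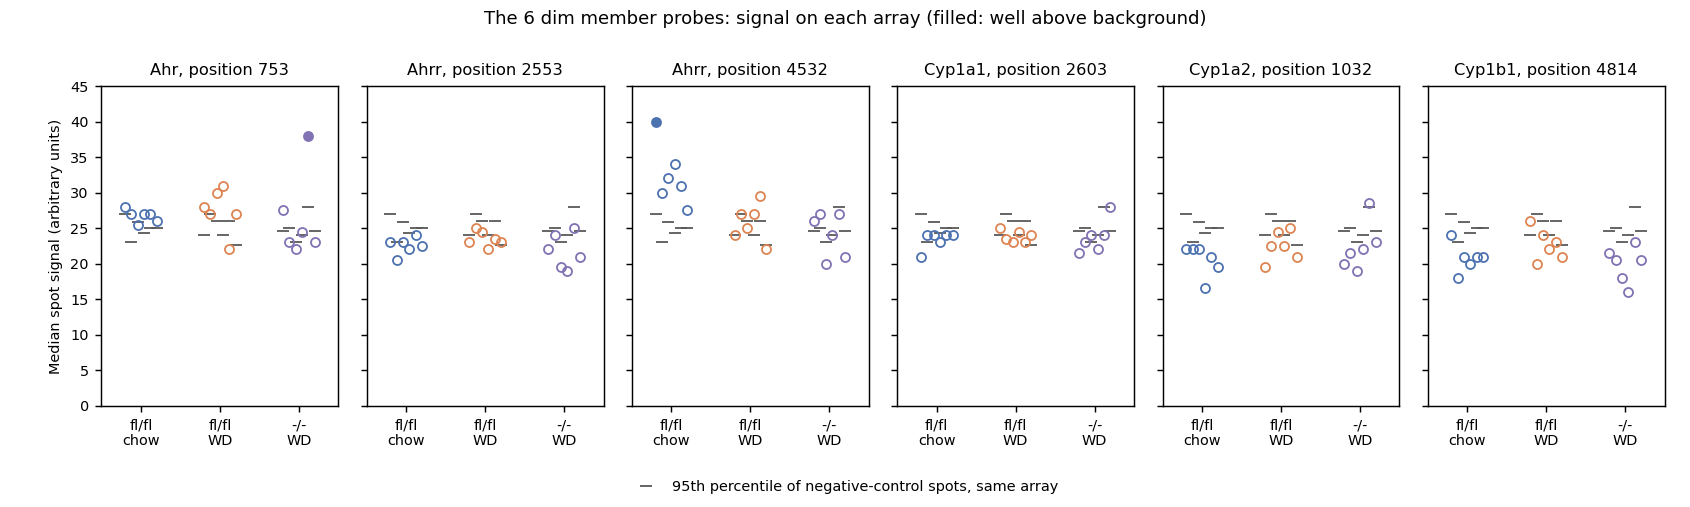
Raw median spot signal (vertical axis, arbitrary units) of the 6 member probes that were not tested, on each array of floxed mice on chow, floxed mice on WD and iPgc1α-/- on WD. Filled circles are well above background and dashes give the 95th percentile of negative-control spots on the same array. At the *Ahrr* probe with start 4532 all 6 chow arrays lie above their dash, and the CYP1 probes lie at 16 to 28.5 units, around the dashes, in every group.

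*Cyp1a1*, *Cyp1a2* and *Cyp1b1* encode the monooxygenases that are the best-known AhR targets, and no array had any of them well above background. The *Cyp1a1* probe gave 21 to 24 units in floxed mice on chow, 23 to 25 in floxed mice on WD and 21.5 to 28 in iPgc1α-/- mice on WD, and 6 of 18 arrays exceeded the 95th percentile of the negative controls (1, 3 and 2 by group). The *Cyp1a2* probe gave 16.5 to 22, 19.5 to 25 and 19 to 28.5 units, and 1 of 18 arrays, from an iPgc1α-/- mouse, exceeded it. The *Cyp1b1* probe gave 18 to 24, 20 to 26 and 16 to 23 units, and 1 of 18, from a floxed mouse on WD, exceeded it. The groups overlapped at each of these probes. With both sides of each comparison at background no fold change is given, and a difference in these enzymes was not detectable with these probes, which is not evidence of absence. In the limma fit without a filter, the smallest adjusted p of any CYP1 probe in any comparison was 0.233. That fit compared signals at background, so it cannot tell whether the enzymes differed. For *Cyp1a1*, the only probe on the array was the one low in G and C described above. The probe of *Cyp1a2* held 51.7% G and C and that of *Cyp1b1* 36.7%. Whether the probe or the transcript level limited the signal of these genes was not tested.

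The correlation between the tested members ranged from low to moderate. After removal of the group means, Pearson's r over the 18 arrays was 0.08 between *Ahr* and *Arnt*, 0.42 between *Ahr* and *Tiparp* and 0.35 between *Arnt* and *Tiparp*, all of which also share the variation between arrays in RNA and hybridisation. The genes closest to *Ahr* by this measure were *Tppp* (0.78), *Gstk1* (0.78) and *Ces2c* (0.76). Those closest to *Arnt* were *1810011O10Rik* (0.90), *Yif1a* (0.90) and *Gm36318* (0.87), and those closest to *Tiparp* were *Agps* (0.93), *Jmjd1c* (0.89) and *Rab6a* (0.88). These are the highest values over all other tested genes and are given as a description.

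The wider pathway was followed in 4 lists, chosen with earlier results of these data known. Their counts beside the shares of all genes are a description, not a test. Among the proteins that hold or assist the receptor, none was called in any comparison. Of all genes 9.1% were called for diet, 0.162% for genotype and 13.3% for iPgc1α-/- on WD against floxed mice on chow. Of 15 listed chaperones and coregulators 14 were tested, and limma called 0 for WD against chow, 0 for genotype and 0 for iPgc1α-/- on WD against floxed mice on chow, with 4, 0 and 7 when the fold was left aside. For 14 genes these counts are near the 27.3%, 0.269% and 41.7% of all genes that passed so, and are no result about the list. The median log2 fold change for diet was -0.18, beside 0.00 over all genes. The 4 genes that passed the adjusted p for diet were *Ncoa1* and *Ncoa3*, coactivators of nuclear receptors, *Rela*, a subunit of NF-κB, and *Stub1*, a ubiquitin ligase that works with heat shock chaperones. *Ncoa1* differed by -0.31 (SE 0.07, limma adjusted p = 0.00407) and *Rela* by -0.27 (SE 0.08, adjusted p = 0.0272). *Stub1* differed in the other direction, by 0.28 (SE 0.09, limma adjusted p = 0.0385). *Ncoa3* passed at a probe with -0.29 (SE 0.09, limma adjusted p = 0.0287) that was not its brightest. These genes were named after their values were seen. For iPgc1α-/- on WD against floxed mice on chow, 1 gene of the list was called without replicate 1, 3 or 4 of iPgc1α-/-. Of all genes 3222, 2986 and 2937 were then called, against 2868 with all arrays.

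Among other genes of the AhR battery, mostly detoxifying enzymes, none was called for WD against chow. Of 8 tested genes 7 had a positive log2 fold change for WD against chow (median 0.30, beside 0.00 over all genes). Without the fold 4 passed the adjusted p, as did 27.3% of all genes. For iPgc1α-/- on WD against floxed mice on chow all 8 were positive (median 0.32, beside -0.01 over all genes). Of these, 2 were called higher (5.77% of all genes were). For genotype on WD 0 were called (0.162% of all genes were), with a median of 0.14 beside 0.01. The comparisons with chow share its arrays, and the share of positive signs over all genes was not computed. The genes called were *Aldh3a1*, an aldehyde dehydrogenase, and *Ugt1a6b*, a UDP-glucuronosyltransferase. *Aldh3a1* gave 7.91, 8.03 and 8.14 (lowest, median, highest log2 signal) on chow, 7.97, 8.42 and 8.78 in floxed mice on WD and 8.36, 8.47 and 9.48 in iPgc1α-/- on WD, where every array exceeded all those on chow and the difference was 0.65 (limma adjusted p = 0.00432). Without replicate 6 of iPgc1α-/- it was 0.49, under 1.5-fold, and 1 gene of the list was called. Of all genes 2557 were then called, against 2868 with all arrays. *Ugt1a6b* was called at a probe with a difference of 0.70 (limma adjusted p = 0.000223), while its brightest probe gave 0.57 (adjusted p = 0.000133) and another probe 0.13 (adjusted p = 0.483). It is a near copy of *Ugt1a6a*, so signal may be shared between them. Many battery genes also answer to NRF2 and other receptors, and which factor was active was not measured.

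The enzymes that make or remove tryptophan-derived AhR ligands included called genes in both directions. Of 12 tested genes, 1 was called higher and 2 lower for WD against chow in floxed mice (3.53% and 5.58% of all genes). The median over the list was 0.18. For genotype on WD 0 were called, where 0.162% of all genes were. *Ido1*, the interferon-inducible enzyme that opens the kynurenine route, gave log2 signals of 9.64, 10.02 and 10.74 (lowest, median, highest) on chow, 8.31, 8.66 and 8.85 in floxed mice on WD and 8.56, 9.001 and 9.23 in iPgc1α-/- on WD. Both WD groups lay wholly below chow, and the log2 fold change for diet was -1.47 (SE 0.16, limma adjusted p = 2.43e-06).

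*Il4i1*, an amino acid oxidase of immune cells that can yield AhR ligands from tryptophan, gave 6.28, 7.49 and 8.42 on chow and 5.55, 6.12 and 7.11 in floxed mice on WD. The groups overlapped, and the log2 fold change was -1.19 (SE 0.30, limma adjusted p = 0.00685). *Ddc*, the decarboxylase that makes serotonin and tryptamine, gave 12.3, 12.9 and 13.2 on chow and 13.4, 13.6 and 13.8 in floxed mice on WD, without overlap, and rose by 0.77 (SE 0.12, limma adjusted p = 8.18e-05). For iPgc1α-/- on WD against floxed mice on chow the values were -1.13 for *Ido1*, -1.12 for *Il4i1* and 0.65 for *Ddc*, and *Ccbl1*, a kynurenine aminotransferase, was called as well at 0.83 (limma adjusted p = 3.15e-05), against 5.77% of all genes called higher and 7.57% lower. The lower *Ido1* and *Il4i1* went with the lower immune cell markers given above, for which the B and plasma cell list had a mean log2 level per array of 7.12 to 8.93 on chow and 5.28 to 7.32 in floxed mice on WD, and the part of these cells was not tested.

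AhR and ARNT belong to the bHLH-PAS proteins, a family that also holds circadian clock factors such as ARNTL. The last list took this family together with the PER clock repressors, which share only its PAS domain. Clock genes were among those called for diet. This list too was chosen with earlier results of these data known, so its counts are a description only. Of 12 tested genes of this list, 3 were called higher and 1 lower for WD against chow in floxed mice. The median was -0.03, and among all genes 3.53% were called higher and 5.58% lower. The same numbers were called for iPgc1α-/- on WD against floxed mice on chow (5.77% and 7.57% of all genes). For genotype on WD 0 were called, where 0.162% of all genes were. The genes higher on WD were the clock repressors *Per3* (2.20, SE 0.20), *Per2* (1.37, SE 0.18) and *Per1* (1.11, SE 0.19), with limma adjusted p of 2.73e-07, 2.09e-05 and 0.000274. *Per3* gave 6.84, 7.60 and 8.45 on chow and 9.47, 9.87 and 10.2 in floxed mice on WD, so that the groups lay far apart. *Arntl* (BMAL1), the activator of the clock and a close relative of ARNT, was lower at -1.31 (SE 0.17, limma adjusted p = 1.49e-05), with 7.40, 8.11 and 8.41 on chow and 6.42, 6.73 and 7.34 on WD. All mice were killed at the same Zeitgeber time, so these values are of a single time point.

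**Figure D4:**
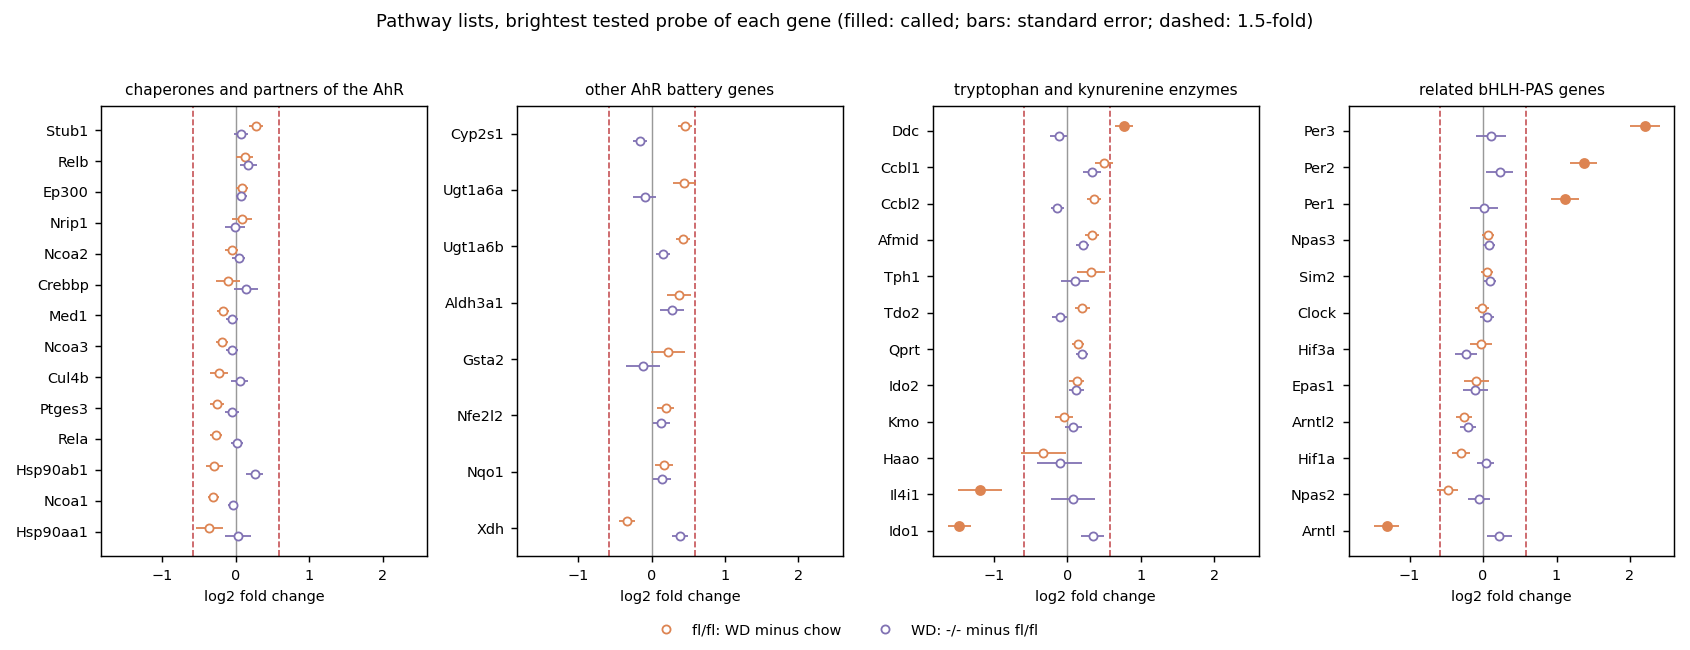
Log2 fold change (horizontal axis) of each tested gene of the 4 pathway lists at its brightest probe, for WD minus chow in floxed mice and for iPgc1α-/- minus floxed mice on WD. Bars are standard errors, filled circles are called genes and dashed lines mark 1.5-fold. Filled circles occur for diet only, at *Ddc*, *Il4i1*, *Ido1*, *Per1*, *Per2*, *Per3* and *Arntl*. Of all genes 9.1% were called for diet and 0.162% for genotype on WD.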

How the data were processed

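The members and gene lists were chosen with earlier results of these data known. The authors deposited, per array, spot intensities from Agilent Feature Extraction 10.10.1.1 (per the submitters' processing notes), not normalized between arrays, and a table of their normalized log2 values for 33095 probes, which held 5 of the 11 member probes. Their methods name a filter, log2 values, qsmooth, limma and a correction for the batches of washing bath and labelling serial. Those batches are not in the labels, so that correction was not repeated. From the median signal intensity, control and outlier spots were left out, spots of a probe averaged, probes filtered (well above background in at least 5 of 6 arrays of any group, 32726 probes and 21542 genes) and log2 values normalized by smooth quantiles (qsmooth, rewritten here, window 0.05). Limma 3.58.1 (lmFit, eBayes, R 4.3.3) fitted the 3 groups in 1 model, with Benjamini-Hochberg adjustment over all tested probes. Per the methods the genotypes were littermates, from more than 1 cohort, but no label ties an array to a litter or cohort, so neither was modelled and p-values measure the spread between these mice. The number of arrays limits the precision (median SE 0.104). All probes of the members are named, and of each list at most the 4 called genes with the largest change per comparison, and for each tested member the 3 genes with the highest r. In the chaperone list, where none was called, the 4 genes that passed the adjusted p for diet are named instead. List genes stand at their brightest tested probe unless another probe is stated. Of the listed genes, 2 are not reported here and were left out of the list counts. The procedure was tested on simulated data. The comparison with negative-control spots was chosen after seeing the data. Alternatives were other signals and normalizations (normexp with an offset of 50, quantile, 75th percentile, the authors' log2 values), other filters and thresholds, slide and replicate blocks, only the groups compared, trended variance, array weights, averaged probes and each array left out. Figures were drawn with matplotlib 3.10.9.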

Additional observations from a re-analysis of the deposited data

Results flagged for a closer look

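Of 33 sets of 6 arrays (11 member probes in 3 groups), 1 held a sample far from the others by Dixon's gap ratio, where chance gives about 1 in 20. It was the *Cyp1a1* probe in floxed mice on chow, whose replicate 1 had a normalized log2 level of 4.277 against 4.545 for the next array. The probe was at background in all 18 arrays. The design held a single diet contrast and a single genotype contrast, so no effect was compared between groups of mice.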

How the results depend on the processing

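No member was called under any alternative except that *Arnt* made the count 1 for WD against chow when the fold threshold was dropped. Whether replicate numbers pair the mice could not be told. Over 18 pairs with the same number the correlation of deviations ranged from -0.23 to 0.35, and 9 exceeded 0.1. Pairs with different numbers were not computed for comparison. With the replicate block, no member was called (0) and the diet difference of *Arnt* was 0.27 with adjusted p = 0.0313, on the same side of the threshold. In the other 12 analyses without a single array left out it was 0.20 to 0.34, with limma adjusted p from 0.00627 to 0.0402. The highest adjusted p came with only the arrays of the groups compared. With each array left out it ranged from 0.23 to 0.32. The differences near 0 changed sign without approaching the threshold. For *Tiparp* by diet the value was 0.080 with the background-subtracted signal, 0.025 with normexp, 0.016 with quantile normalization, 0.0090 with plain scaling of the median signal, 0.016 with the authors' log2 values and 0.030 with array weights, and -0.056 to 0.042 with an array left out. *Ahr* by diet was 0.0029 with normexp, and by genotype -0.0081 with normexp, -0.0046 with the scaled median signal and -0.035 to 0.047 with an array left out. The dim *Ahrr* probe depended on how the signal was treated, in background and in scaling between arrays. With quantile normalization of the median signal its diet difference was -0.28, and neither this setting nor the scaled median signal corrected for background. Its difference was -1.51 for diet, -0.25 for genotype and -1.76 for both together with the background-subtracted signal, -0.16 for diet, 0.0090 for genotype and -0.15 for both with normexp, and -0.10 for diet, -0.17 for genotype and -0.27 for both with the scaled median signal, against -0.29, -0.09 and -0.38 as reported. The cause of these changes was not tested.

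Counts over the lists also moved. For WD against chow they were 4 chaperones, 4 battery genes and 6 tryptophan enzymes without the fold threshold (27.3% of all genes passed so). With the fold threshold they were 2 battery genes with the background-subtracted signal and 1 with array weights. Of all genes these settings called 3006 and 1985, against 1960 in the main analysis. For iPgc1α-/- on WD against floxed mice on chow the list counts moved too. Without the fold threshold they were 7 chaperones, 5 battery genes and 7 bHLH-PAS or PER genes (41.7% of all genes passed so). With the fold threshold they were 1 chaperone with the background-subtracted signal, 1 battery gene with array weights and 1 battery gene with averaged probes. Of all genes these settings called 4491, 2629 and 2248, against 2868 in the main analysis. With an array left out the list counts were 0 to 1 chaperones and 1 to 2 battery genes, and 2557 to 3222 of all genes were called. For genotype on WD every list stayed at 0, where 0.162% of all genes were called in the main analysis. No normalization moved the median of all probes by more than 0.04 on the log2 scale. For *Ahrr* and the CYP1 genes, signal near background, not the number of arrays alone, limits what can be measured.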
